A study of Drosophila melanogaster with 24 samples.

Results

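The 9 genes described here make, move and break down trehalose and glycogen, the carbohydrate stores of the fly. They are Tps1, Treh, Tret1-1, Pgm1, UGP, Gyg, Glys, AGBE and Glyp. They were chosen by name, with earlier results of these data known, and are 9 of 14220 genes with values. All 9 passed the filter on low counts. RNA came from mated Drosophila melanogaster females at 4 days of age, and the tissue was the carcass of the abdomen: fat body and body wall, with residual hemolymph, oenocytes, neurons and tubule fragments. Each of the 24 libraries was 1 pool of 10 carcasses. In 12 replicate populations, 6 named Selected (S1 to S6) and 6 named Control (C1 to C6), larvae were raised on a poor and on a standard diet.

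The 4 groups of 6 libraries were therefore Selected on poor diet, Selected on standard diet, Control on poor diet and Control on standard diet. The poor diet held yeast, sugars and cornmeal at 0.25 of their standard strength. Adults of every group ate standard food for 3 days before dissection, so diet refers to what the larvae ate. No genetic alteration is named for any group. The series title ties the regimes to larval undernutrition, and the conditions of selection are not given in the sources used here. The titles of the libraries name the other diet in 24 of 24 cases and the other regime in 12. Every direction below rests on the sample characteristics instead.

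Trehalose is the main circulating sugar of insects. It is made in the fat body from UDP-glucose and glucose 6-phosphate, leaves through transporters, and is hydrolysed to glucose by trehalase where it is used. Glycogen is the stored polymer of glucose in fat body and muscle. It is primed by glycogenin, lengthened from UDP-glucose, branched, and broken down from its chain ends by a phosphorylase.

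Total estimated counts were 29.4 to 31.5 M in 23 libraries and 22.4 M in Selected population S2 on standard diet. The members were deeply covered. Gyg, among the lowest, had 2568 to 5231 estimated counts per library, and Tps1 had 92112 to 237210. Fat body markers were uneven. The yolk protein gene Yp1 averaged 25753 CPM (counts scaled to library size) and the lipoprotein gene apolpp 2204 CPM. The storage protein gene Lsp2 averaged 3.21 CPM, and 2 of 14 markers, Fbp2 and Lsp1alpha, did not pass the filter. The mean log2 CPM of the other 12 spanned 5.17 to 6.52 in Selected and 5.44 to 6.48 in Control libraries. The oenocyte gene Cyp4g1 averaged 53132 CPM. Markers of removed tissue were also present. A score is the mean log2 CPM of a list. The score of 28 genes listed for germline and oocyte spanned 1.02 to 5.79 in Selected libraries and 0.29 to 5.58 in Control libraries. In that list the entry nos (nanos) was matched by name to Nos, the nitric oxide synthase gene, which is not a germline marker. It stayed in the germline score throughout. The score of 24 midgut enzyme genes spanned -1.27 to 6.38 in Selected and -1.27 to 5.08 in Control libraries, and 6 of 30 did not pass the filter. The score of 18 body wall muscle genes, which belong to the carcass itself, spanned 8.30 to 9.27 in Selected and 8.36 to 8.96 in Control libraries. In such bulk RNA, fewer cells of a type and less RNA per cell cannot be told apart.

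Levels were compared between genes in TPM, the unit that accounts for transcript length. Tps1, the trehalose 6-phosphate synthase, had the highest level of the 9. It averaged 2372 ± 498 TPM (SD, n = 24) and ranked at percentile 99.3 of all genes. Tret1-1, a facilitated trehalose transporter, averaged 708 ± 207 TPM. Glyp, the glycogen phosphorylase, averaged 671 ± 206 TPM. These neighbours in the order did not separate, since Tret1-1 exceeded Glyp in 13 of 24 libraries.

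The enzymes that supply activated glucose and the branching enzyme came next. UGP, which makes UDP-glucose from glucose 1-phosphate, averaged 492 ± 91.4 TPM (SD, n = 24). Pgm1, which interconverts glucose 1-phosphate and glucose 6-phosphate, averaged 411 ± 80.4 TPM. AGBE, the glycogen branching enzyme, averaged 353 ± 145 TPM. UGP exceeded Pgm1 in 17 of 24 libraries and Pgm1 exceeded AGBE in 16, so their ranges overlapped. AGBE stood above Glys in 24 of 24 libraries, as Tps1 stood above Tret1-1.

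The lowest of the 9 were Glys, Gyg and Treh. Glys, the glycogen synthase, averaged 109 ± 26.2 TPM (SD, n = 24). Gyg, the glycogenin that primes new chains, averaged 64.9 ± 11.7 TPM. Treh, the trehalase, averaged 59 ± 8.52 TPM, at percentile 89.3 of all genes. Glys exceeded Gyg in 21 of 24 libraries and Gyg exceeded Treh in 17. In this carcass the synthase of trehalose was thus read at a far higher level per length than its hydrolase, and the phosphorylase of glycogen at a higher level than its synthase.

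The 9 genes differed in how much they varied between libraries. AGBE varied most, with a 5.3-fold range of CPM between the highest and the lowest library, and Treh varied least, with a 1.47-fold range. The SD of log2 CPM over 24 libraries was 0.58 for AGBE and 0.17 for Treh. Tret1-1 and Glyp had SDs of 0.45 and 0.44, against 0.20 for Gyg. Among all tested genes the SD of AGBE stood at percentile 74.5 and that of Treh at percentile 13.9.

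**Figure D1:**
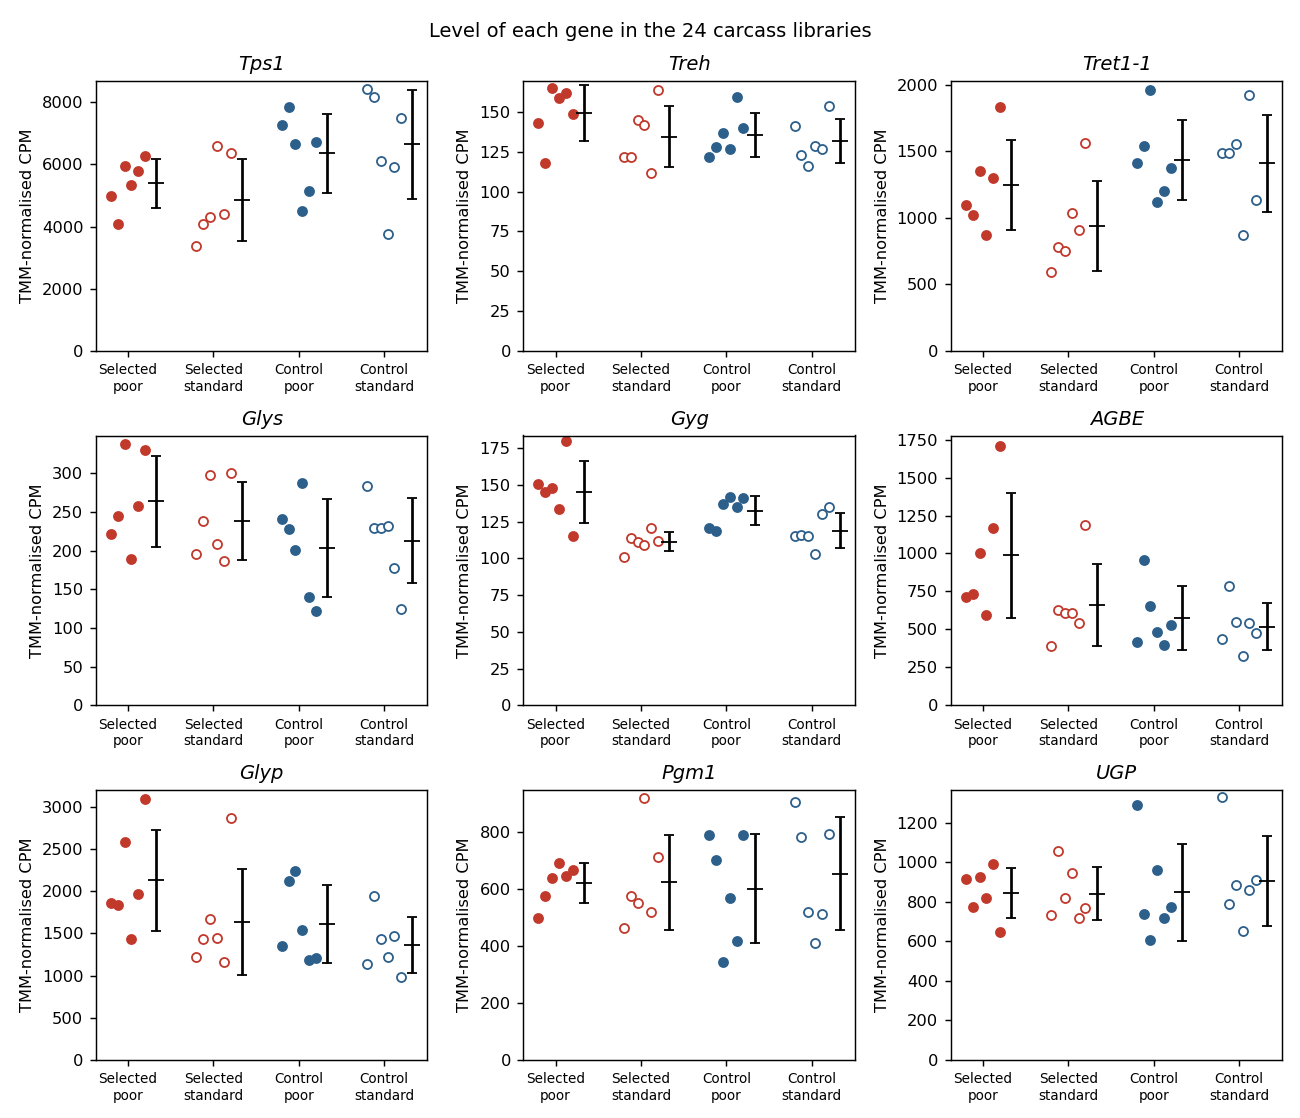
TMM-normalised CPM of each of the 9 genes in 24 libraries. Each point is 1 library, filled for poor and open for standard larval diet, red for Selected and blue for Control, and bars give the mean ± SD of 6 populations. Poor libraries of Gyg lie above the standard libraries of their own population in 12 of 12 cases, while the groups of Treh, UGP and Pgm1 overlap widely.

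The effect of larval diet was tested first, since each population was raised on both diets and serves as its own comparison. At an adjusted p below 0.05 none of the 9 genes changed with diet (edgeR quasi-likelihood test, Benjamini-Hochberg over 10184 genes). Among all genes the same threshold called 115, or 1.13%. At an unadjusted p below 0.05, 3 of the 9 members (Gyg, Glyp and AGBE) and 17.6% of all genes passed. In all 3 the estimate was higher on poor diet. Glys, which also acts on glycogen, had an unadjusted p of 0.668, and poor exceeded standard in 6 of 12 populations.

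Gyg showed the most regular difference. In Selected populations it had 115 to 179.8 CPM on poor diet (median 146), against 101 to 121 CPM on standard diet (median 111). In Control populations it had 119 to 142 CPM on poor diet (median 136), against 103 to 135 CPM on standard diet (median 115). The diets overlapped across populations, yet poor was higher than standard within 12 of 12 populations, which held for 0.422% of all genes. The fold was 1.20, a log2 difference of 0.27 ± 0.06 (SE, 95% interval 0.14 to 0.40), with an adjusted p of 0.0555 by edgeR.

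The call for Gyg depended on the fit. Its adjusted p was 0.00348 in DESeq2, which called 5.35% of all genes, and 0.0169 with the germline and midgut scores as covariates, which called 4.63%. With the body wall muscle score as a covariate the log2 difference was 0.21 and the adjusted edgeR p was 0.0278, and that fit called 2.21% of genes. Without Control population C5 its adjusted edgeR p was 0.0487, with 1.36% of genes called. In the other edgeR and limma fits it missed the threshold.

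Glyp, which releases glucose 1-phosphate from glycogen, had 1188 to 3098 CPM on poor diet (median 1850.3), against 985 to 2865 CPM on standard diet (median 1435). The diets overlapped, and poor was higher in 10 of 12 populations. At least that many populations were higher for 5.85% of all genes. The log2 difference was 0.32 ± 0.09 (SE, 95% interval 0.13 to 0.51), with an adjusted edgeR p of 0.108. The adjusted p was 0.0165 in DESeq2, 0.0316 with the germline and midgut covariates in edgeR, and 0.0404 in edgeR without Control population C5. With the body wall muscle covariate it was 0.0822.

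AGBE, which adds branches to glycogen, had 397 to 1708 CPM on poor diet (median 684), against 322 to 1188 CPM on standard diet (median 546). Poor was higher in 9 of 12 populations, and the exceptions were C1, C5 and S4. The log2 difference was 0.35 ± 0.12 (SE, 95% interval 0.09 to 0.61), with an adjusted edgeR p of 0.17. Tret1-1 was also higher in 9 of 12 populations, by 0.24 ± 0.12 on the log2 scale, and its adjusted edgeR p was 0.311.

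For the other 5 genes the diet difference was small beside the spread between populations. The log2 difference was 0.10 ± 0.06 for Treh, 0.07 ± 0.09 for Tps1 and 0.03 ± 0.07 for Glys (SE). It was -0.05 ± 0.10 for UGP and -0.05 ± 0.09 for Pgm1, both lower on poor diet in 8 of 12 populations. Glys, the enzyme that lengthens glycogen, had a 95% interval of -0.12 to 0.18. Over the 9 members the median log2 difference was 0.10, with 7 positive, beside a median of -0.03 and 44.3% positive over all genes. Several marker lists leaned the same way with none of their genes called. Positive estimates were found for 14 of 18 body wall muscle genes (median 0.15), 12 of 12 neuron genes (median 0.34), 10 of 12 hemocyte genes (median 0.14) and 7 of 7 oenocyte genes (median 0.09). Other lists did not lean that way. Negative estimates were found for 8 of 12 fat body genes (median -0.30, 4 of them called) and 19 of 24 midgut enzyme genes (median -0.94). They were also found for 17 of 28 genes in the germline score (median -0.06) and 9 of 14 Malpighian tubule genes (median -0.19). The neuron, hemocyte, oenocyte, fat body and tubule scores were not fitted as covariates, and their part in the members' estimates was not tested.

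**Figure D2:**
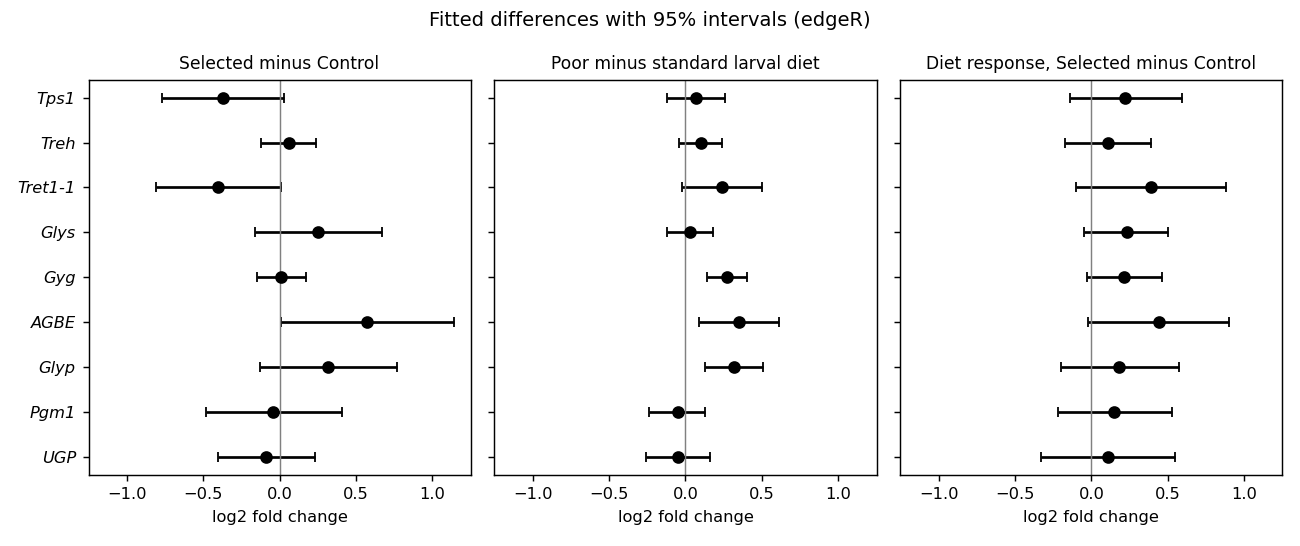
Log2 fold change of each gene for Selected minus Control (left), poor minus standard (middle) and the diet response of Selected minus that of Control (right). Points are edgeR estimates and bars are 95% intervals; for diet the intervals of Gyg, Glyp and AGBE lie above 0, and for the regime by diet term all 9 points lie right of 0 with every interval crossing it.

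Regimes were compared over the summed libraries of 6 Selected and 6 Control populations. None of the 9 genes passed (edgeR quasi-likelihood test, Benjamini-Hochberg over 10380 genes), and 0.0289% of all genes did. At an unadjusted p below 0.05, 1 of 9 members and 10.6% of genes passed. DESeq2 and limma voom called none of the 9 either. The regimes overlapped for all 9 members, and the share of genes whose regimes did not overlap was 0.786%.

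AGBE had the largest estimate and was the member past an unadjusted 0.05. It had 537 to 1454 CPM in Selected populations (median 732), against 384 to 887 CPM in Control populations (median 491). Selected population S6, at 1454 CPM, stood well above the next one, at 837 CPM. The fold was 1.49, a log2 difference of 0.57 ± 0.26 (SE, 95% interval 0.01 to 1.14), with an adjusted edgeR p of 0.459. Leaving out each population in turn gave 0.34 (without S6) to 0.76, and the germline and midgut covariates gave 0.99 with an adjusted edgeR p of 0.231. Glyp leaned the same way, at 0.32 ± 0.21 (adjusted edgeR p of 0.632), as did Glys, at 0.25 ± 0.19 (adjusted edgeR p of 0.689). Glyp was at 0.15 without S6 and at 0.57 with the germline and midgut covariates, and Glys was at 0.15 without C6.

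The trehalose synthase and transporter had estimates below 0. Tps1 had 4066 to 6305 CPM in Selected populations (median 4980.2), against 3983 to 8126 CPM in Control populations (median 6843). Its log2 difference was -0.37 ± 0.18 (SE, 95% interval -0.77 to 0.03), with an adjusted edgeR p of 0.504. Tret1-1 had 822 to 1701 CPM in Selected populations (median 977), against 953 to 1754 CPM in Control populations (median 1516). Its log2 difference was -0.40 ± 0.19 (SE, 95% interval -0.81 to 0.01), with an adjusted edgeR p of 0.478. In Selected populations 5 of 6 values of Tret1-1 lay between 822 and 1085 CPM, and S6 had 1701 CPM.

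The level of Tps1 moved with the germline score. Over 12 population means its log2 CPM had a Pearson r of -0.89 and a Spearman rho of -0.88 with that score (permutation p of 5.00e-05 and 3.50e-04). Adjusted over 45 relations of 5 marker scores with 9 genes, these were 0.00225 and 0.0157. Without the 2 populations farthest from the median score r was -0.89, and within regimes it was -0.93 in Selected and -0.84 in Control (n = 6 each). The score averaged 3.83 in Selected and 2.80 in Control libraries. With the germline and midgut scores as covariates the regime difference of Tps1 was -0.10, with an adjusted edgeR p of 0.952. Tret1-1 was at -0.20 in the same fit, with an adjusted edgeR p of 0.877. Over population means the r of Tret1-1 with the germline score was -0.74 (adjusted Pearson permutation p of 0.0907). How many of all tested genes have a like r with this score was not determined, and the cause of these relations was not tested.

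The remaining 4 members had regime estimates near 0. The log2 difference was 0.06 ± 0.08 for Treh, 0.01 ± 0.07 for Gyg, -0.04 ± 0.20 for Pgm1 and -0.09 ± 0.14 for UGP (SE). For Gyg the 95% interval ran from -0.15 to 0.17, so that a regime difference of the size of its diet difference lay outside it. UGP was uneven among Control populations, where C1 had 1351 CPM and the next highest, C6, had 869 CPM. Over the 9 members the median log2 difference was 0.01, the same as over all genes.

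Whether the diet response differed between regimes was tested by the regime by diet term. It passed for none of the 9 genes, and for 0% of 10184 genes in edgeR, where 1.52% had an unadjusted p below 0.05 and no member did. DESeq2 called 1 of 10184 genes, and none of the 9. The estimates were nevertheless all on one side: in 9 of 9 members the response was more positive in Selected populations, beside 44.8% of all genes. Their median was 0.21 on the log2 scale, against -0.02 over all genes, and the members were not independent of each other. Markers of body wall muscle and of residual tissue shifted in the same term, with none of these genes called. The 18 body wall muscle genes had a median of 0.22, with 16 positive. Of 24 midgut enzyme genes 23 were positive, with a median of 2.22. Of the 28 genes in the germline score 26 were negative, with a median of -0.51. With the germline and midgut scores as covariates the 9 terms lay between 0.05 and 0.54.

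AGBE had the largest term. Its poor minus standard difference on the log2 scale averaged 0.57 ± 0.42 in Selected populations and 0.13 ± 0.35 in Control populations (SD, n = 6 each), a difference of 0.44 ± 0.21 (SE, adjusted edgeR p of 1). For Tret1-1 it averaged 0.44 ± 0.42 in Selected and 0.05 ± 0.39 in Control populations, a difference of 0.39 ± 0.22 (SE), which was 0.25 without C5. For Gyg it averaged 0.37 ± 0.20 in Selected and 0.16 ± 0.17 in Control populations. Glys was higher on poor diet in 5 of 6 Selected populations and in 1 of 6 Control populations. The means were 0.14 ± 0.20 in Selected and -0.08 ± 0.23 in Control populations, a difference of 0.23 ± 0.13 (SE). With the body wall muscle score as a covariate 8 of 9 terms were positive, between -0.03 and 0.29.

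**Figure D3:**
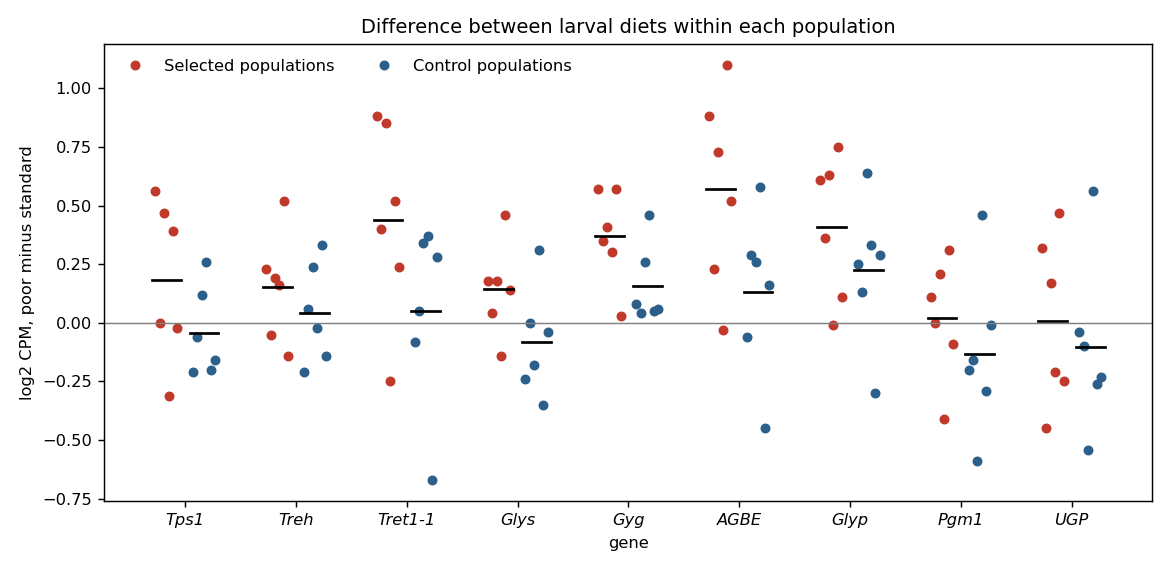
Poor minus standard difference of log2 CPM within each population, for each gene, with Selected populations in red, Control populations in blue and the mean of 6 as a bar. All 12 points of Gyg lie above 0, and the Selected mean is above the Control mean for each of the 9 genes, while the points of both regimes overlap.

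The diet differences of the 9 genes went together from population to population. Selected population S5 was among the 3 populations with the largest difference for each of the 9 genes. There AGBE was higher on poor diet by 1.10, Glyp by 0.75 and Gyg by 0.57 on the log2 scale. In Control population C5, AGBE was at -0.45, Tret1-1 at -0.67 and Glyp at -0.30. Of 36 pairs of members, 36 had a positive Pearson r over the 12 differences, with a median of 0.67 and a range of 0.04 to 0.93. Of all pairs of tested genes 49.8% were positive, with a median of 0.0. An r of 0.6 or more was found in 23 of 36 pairs (63.9%) and in 11.8% of all pairs of tested genes.

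The pair with the highest Pearson r was Glys with AGBE, the elongating and the branching enzyme of glycogen synthesis. Their diet differences had a Pearson r of 0.93 and a Spearman rho of 0.92 (permutation p of 4.00e-05 and 1.00e-04, adjusted over 36 pairs 0.00144 and 0.0018). Without the 2 farthest populations r was 0.85, and it was 0.95 within Selected and 0.89 within Control populations. The highest rho, 0.94, was that of Tps1 with Tret1-1 (permutation p of 3.00e-05, adjusted 0.00108). Its r was 0.86 (permutation p of 1.90e-04, adjusted 0.00216), and it was 0.75 without the 2 farthest populations, 0.96 in Selected and 0.67 in Control populations. Tps1 with AGBE had an r of 0.88 and a rho of 0.90 (adjusted permutation p of 0.00216 and 0.00189), and its r was 0.87 without the 2 farthest populations, 0.89 in Selected and 0.82 in Control populations. Glyp with Tret1-1 had an r of 0.88 and a rho of 0.86 (permutation p of 8.00e-05 and 6.50e-04, adjusted 0.00144 and 0.00468). Without the 2 farthest populations their r was 0.83, and it was 0.86 in Selected and 0.90 in Control populations. After adjustment 23 pairs passed by Pearson permutation and 18 by Spearman, with 17 in common, and 28 pairs were positive in both regimes. The shares of all gene pairs that would pass, or be positive in both regimes, were not determined. Treh stood aside, since its r with Pgm1 was 0.04 and its highest r, with Gyg, was 0.53.

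This common movement was shared with muscle genes. The diet difference of the body wall muscle score had an adjusted Pearson permutation p below 0.05 with 8 of 9 members, all but Treh. By Spearman permutation Glys, AGBE and UGP did not pass either, with adjusted p of 0.0556, 0.0556 and 0.101. How many of all tested genes would pass with this score was not determined, so these counts do not set the members apart. With Gyg the muscle score had an r of 0.84 and a rho of 0.82 (permutation p of 0.00178 and 0.00189, adjusted over 45 relations 0.016 and 0.0142). Without the 2 farthest populations that r was 0.76, and it was 0.83 in Selected and 0.90 in Control populations. The score was higher on poor diet by 0.28 to 0.58 in S1, S2, S3, S5 and C4, and lower in the other 7 populations. With it removed from each gene by regression, the median r of the 36 pairs was 0.22. An r of 0.6 or more was then left in 5 of 36 pairs (13.9%), against 8.13% of all gene pairs. In TPM, which carries no TMM factor, 11 of 36 pairs (30.6%) reached 0.6, beside 21.8% of all pairs.

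**Figure D4:**
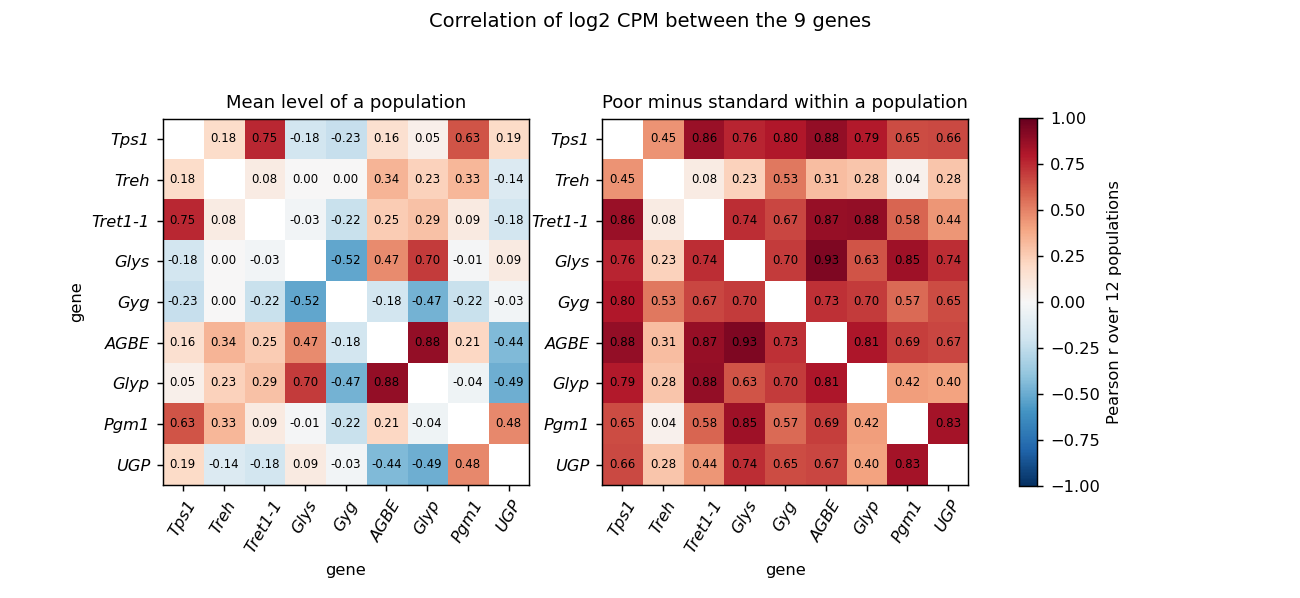
Pearson r between each pair of the 9 genes over 12 populations, for the mean log2 CPM of a population (left) and for its poor minus standard difference (right). Colour and number give r. On the left the values run from -0.52 to 0.88. On the right 36 of 36 pairs are positive, beside 49.8% of all gene pairs.

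Other tissue scores moved with fewer members. For these scores too, the share of all tested genes that would pass was not determined. The diet difference of the germline score had a Pearson r of -0.77 with both Tps1 and Glyp (Spearman rho -0.76 and -0.84, adjusted Pearson permutation p of 0.0227 and 0.0192). Without the 2 farthest populations r was -0.81 for Tps1 and -0.69 for Glyp. Within regimes it was -0.84 in Selected and -0.83 in Control populations for Tps1. For Glyp it was -0.95 in Selected and -0.63 in Control populations. The score of 7 oenocyte genes passed by Pearson with Tps1, Tret1-1, Pgm1 and UGP. By Spearman permutation UGP did not pass (adjusted p of 0.0898) and Glys did (adjusted p of 0.0287). The fat body score had an r of 0.57 or less with each member and passed with none. That score averages genes of very unlike level, some of which fell on poor diet, so it does not measure the amount of fat body. Of 12 fat body markers tested, 4 fell on poor diet, against 0.265% of all genes, namely Yp1, Yp2, Yp3 and fit (the last named after its value was seen), with adjusted edgeR p of 0.0389 to 0.048.

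**Figure D5:**
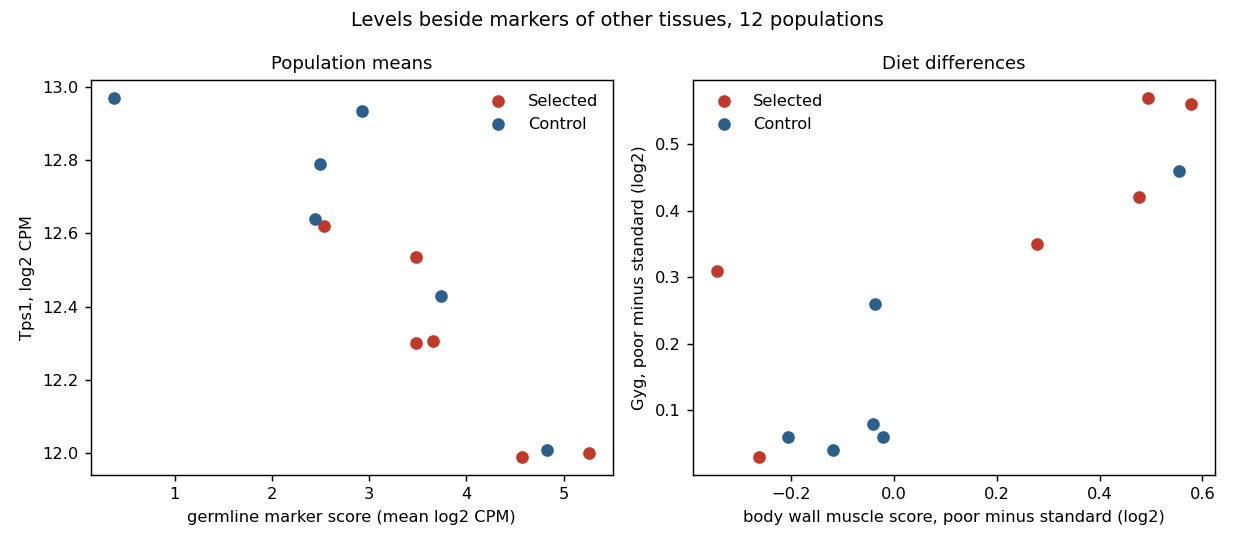
Left, mean log2 CPM of Tps1 against the mean germline and oocyte score, 1 point per population, with an r of -0.89. Right, the poor minus standard difference of Gyg against that of the body wall muscle score, with an r of 0.84; Selected populations are red and Control populations blue, and both regimes lie along each trend.

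Population means of the 9 genes, by contrast, were mostly unrelated. The median r of 36 pairs was 0.06, and an r of 0.6 or more was found in 4 pairs (11.1%), beside 7.84% of all gene pairs. Only Glyp with AGBE passed in both tests. Their r was 0.88 and their rho 0.84 (permutation p of 2.80e-04 and 0.00116, adjusted over 36 pairs 0.0101 and 0.0418). It was 0.80 without the 2 farthest populations, 0.90 within Selected and 0.80 within Control populations. Both genes were highest in Selected population S6, where Glyp had 2982 CPM and AGBE 1454 CPM summed over diets.

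The genes most like each member over the 24 libraries were listed by Pearson r of log2 CPM, as a description. AGBE and Glyp were among each other's 3 closest genes of 10184, at 0.89. Both also had PGRP-LC, a peptidoglycan receptor of the Imd immune pathway, among their closest, at 0.89 for AGBE and 0.87 for Glyp. CG9485, the fly glycogen debranching enzyme, was the third for Glyp, at 0.83. Gyg was closest to nkd (0.83), to up, a troponin T of muscle (0.82), and to pot (0.82). Tps1 was closest to Spn77Ba, a serpin, at 0.94, and Tret1-1 to the ubiquitin gene Ubi-p63E, at 0.90. For Pgm1 the closest was Gk1 at 0.90, for UGP CG16756 at 0.80, for Glys Fum2 at 0.82, and for Treh CG5079 at 0.71. Fum2 averaged only 3.2 CPM and CG5079 only 0.353 CPM, levels at which log2 CPM is less exact. These libraries share population, diet and tissue residue, so the values say nothing of how the genes are controlled.

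The genes and their transcripts lay as follows in build BDGP6.54. Tps1 lay at 2L:4388327-4392778 on the plus strand and Glyp at 2L:2130813-2137296, plus. Treh lay at 2R:21074018-21088945, Gyg at 2R:21200483-21210821, AGBE at 2R:13171401-13174796 and Tret1-1 at 2R:11665768-11674782, all plus. UGP lay at 3L:9350867-9358935, Pgm1 at 3L:16126018-16128531 and Glys at 3R:15141843-15147531, all minus. Tps1, AGBE and Pgm1 had 1 annotated transcript with values, Treh had 7 and Gyg 6. Whether counting used strand was not stated in the sources used here. Reads of exons shared with genes on the other strand therefore cannot be told apart, which touched 20% of the exon bases of UGP (PGRP-LF) and 12.8% of those of Treh (Rbpn-5). Gyg shared 5.27% of its exon bases with CG44245 on the same strand.

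Transcript use was given as the share of a transcript in its gene's TPM. Of 28 transcripts of the 9 genes, 16 had a mean share between 5% and 95% and were tested. Tret1-1 was read mainly as RB, which starts at an internal first exon and has a coding length of 1467 bases, at 85.2 ± 4.57% (SD, n = 24). The longer RA, with a coding length of 2571 bases, made up the other 14.8%. The RA share was 21.6% in S1 on standard diet, where Tret1-1 had its lowest level, 594 CPM. It was 7.25% in C3 on poor diet, where Tret1-1 had its highest, 1961 CPM. How far the shifts of this share restate those of gene level was not tested. Glyp was split between RA at 45% and RB at 55%. UGP was split between RA at 47.4% and RD at 47.5%, with RE at 5.06%. Glys was mostly RA at 55.5% and RC at 40.6%, Gyg mostly RB at 66.1%, and Treh mostly RA at 61.3% with RF at 20.1%.

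With diet, no transcript share passed after adjustment over 12802 transcripts, among the 9 genes or in all (0%; exact sign-flip test over 12 populations, two-sided, Benjamini-Hochberg). At an unadjusted exact p below 0.05, 4 of 16 member transcripts and 11.6% of all transcripts passed, and RA and RB of Tret1-1 are complements of each other. The RA share of Tret1-1 averaged 12.9% on poor diet and 16.7% on standard diet. In 10 of 12 populations the poor library had the lower share. The difference was -3.83 ± 3.26 percentage points (SD, n = 12; exact p of 0.00439, adjusted 0.281). In S1 it was 14.7% on poor and 21.6% on standard diet. All 6 Selected populations had the lower share on poor diet, and the exceptions were C2 and C5. The RE share of UGP averaged 5.8% on poor and 4.32% on standard diet, higher in 9 of 12 populations (exact p of 0.00879, adjusted 0.312). RE runs on to base 9350867, past the ends of RA at 9351457 and RD at 9351480. UGP shares 602 exon bases with PGRP-LF on the other strand. With strand unstated, how far reads of PGRP-LF enter the RE share was not tested. The RA share of Treh averaged 64% on poor and 58.6% on standard diet, also higher in 9 of 12 (exact p of 0.0391, adjusted 0.399).

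With regime, 0 of 16 member transcripts had an unadjusted exact p below 0.05, against 7.53% of all transcripts, and none of 12802 passed after adjustment (0%). The RA share of Tret1-1 came nearest. It averaged 17 ± 3.25% in Selected populations and 12.7 ± 3.45% in Control populations (SD, n = 6 each; exact permutation test, two-sided p of 0.0584, adjusted 0.676). These shares rest on estimated counts, in which reads common to several transcripts are divided by a model.

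Other genes of glycogen and trehalose metabolism were read beside the 9. Of 14 listed, 13 were tested, and 0 passed for regime, diet or their interaction (edgeR quasi-likelihood test, adjusted over all genes). At an unadjusted p below 0.05 in that test 2, 3 and 0 passed, beside 10.6%, 17.6% and 1.52% of all genes. For regime 12 of 13 estimates were below 0, while 51.7% of all genes were above it. The median was -0.15, beside 0.01 over all genes. Tret1-2, a near relative of Tret1-1, had a regime difference of -2.04 ± 0.68 (SE, adjusted edgeR p of 0.298) at a mean of 15.5 CPM, and is uncertain where reads match both genes. CG5171, a trehalose phosphatase by annotation, was at -0.50 ± 0.21 (adjusted edgeR p of 0.411). Gbs-76A, a regulatory subunit that targets phosphatase to glycogen, was at -0.42 ± 0.20. The debranching enzyme CG9485 was at 0.03 ± 0.28 for regime and 0.10 ± 0.12 for diet.

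For diet, 9 of these 13 estimates were above 0, with a median of 0.10, beside 44.3% and a median of -0.03 over all genes. CG7766, annotated as a regulatory subunit of phosphorylase kinase, which activates the phosphorylase, was at 0.28 ± 0.10 (SE, adjusted edgeR p of 0.189). The phosphatase genes Pp1alpha-96A and flw were at 0.26 ± 0.09 and 0.17 ± 0.05 (adjusted edgeR p of 0.177 and 0.162). Gbs-70E, another glycogen-targeting subunit, was at -0.11 ± 0.08 and sgg, the glycogen synthase kinase, at 0.13 ± 0.08. None of them passed.

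The genes that feed hexose into these pathways and the hormones that act on them were counted in the same way. Of 25 genes of hexose supply and use, 20 were tested for regime and 19 for diet, and none passed. The smallest p for diet was that of Gfat1, which starts amino sugar synthesis, at 0.46 ± 0.11 (SE, adjusted edgeR p of 0.0702), followed by the hexokinase Hex-A at 0.23 ± 0.07 (adjusted edgeR p of 0.109). Of 27 hormone and sensor genes, 25 were tested and 1 rose on poor diet, against 0.864% of all genes. It was InR, the insulin receptor, at 0.57 ± 0.10 (SE, adjusted edgeR p of 0.0232), higher on poor diet in 12 of 12 populations. Ilp6, an insulin-like peptide of the fat body, was at 0.46 ± 0.12 (adjusted edgeR p of 0.0756), higher in 10 of 12. For regime the smallest p in that list was that of cbt, a sugar-responsive transcription factor, at -0.30 ± 0.13 (adjusted edgeR p of 0.44), and none passed.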

How the data were processed

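The members and lists were chosen with earlier results of these data known. Per the submitters' processing notes, the authors used kallisto 0.46.2 with build BDGP6, and also limma and edgeR. Per the file headers, each deposited library table gives every transcript an estimated count and a TPM value, made by the authors with kallisto. A deposited table of the series holds log2 CPM for 8746 genes, all 9 members included.

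Of 30944 transcripts, 30811 joined the BDGP6.54 annotation; the other 133, with 0.28% of counts, were not used. Gene sums of estimated counts were rounded. Genes were tested with edgeR 4.0.16 in R 4.3.3 (quasi-likelihood F test, TMM factors, filterByExpr, Benjamini-Hochberg over all genes tested). Regimes were compared over 6 and 6 population sums. Diet and the interaction were fitted on 24 libraries, with population blocked. The block comes from the labels, and deviations of a population's libraries correlated at 0.23 on average, from -0.23 to 0.69. Each population is 1 replicate of its regime.

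Intervals are 95%. CPM are TMM-normalised, and log2 CPM has a prior count of 2. Transcript shares were tested by exact permutation and adjusted over all 12802 transcripts with mean shares of 5 to 95%, a wider family than planned. Correlations used 100000 permutations. All 9 members, the 3 genes most like each by Pearson r, the tested genes of the glycogen and trehalose list and at most 3 genes of smallest p per other list could be named. DESeq2 1.42.0, limma 3.58.1 with voom, the deposited log2 values, RLE size factors, no filter, tissue scores as covariates and leaving out each population were the alternatives. On simulated counts of 10184 genes, of 200 genes changed by 1 on the log2 scale the tests called 73% for regime, 70.5% for diet and 33% for the interaction. The simulated counts held no differences between populations of a regime, which the real regime test has to overcome. The 73% is therefore no measure of how well that test finds differences in these data.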

Additional observations from a re-analysis of the deposited data

Results flagged for a closer look

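In 5 of 54 sets of 6 values, 1 population stood apart from the nearest other by a gap that is large for its set, and chance gives about 1 in 20 sets. That rate holds for independent sets, whereas the sums over diets hold the same libraries as the sets of 1 diet. The number of flags is therefore no measure of an excess. Of the 5 flagged sets, 4 were from Selected population S6. Its Glyp level on standard diet was 2865 CPM, with the next at 1675 CPM, and its AGBE level on standard diet was 1188 CPM, with the next at 627 CPM. Summed over diets, AGBE had 1454 CPM in S6 with the next at 837 CPM, and Tret1-1 had 1701 CPM with the next at 1085 CPM. The other was Control population C1, in which UGP had 1351 CPM over both diets, with the next at 869 CPM. What sets these populations apart was not tested.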

How the results depend on the processing

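No member passed for regime or for the interaction under any alternative. For diet, Gyg and Glyp crossed the threshold in the fits named beside them in the report, and the other 7 members in none. The number of genes called for regime was 3, against 212 in DESeq2, 155 in limma voom, 1 from the deposited log2 values, 63 with the body wall muscle covariate, 0 with a replicate block of like-numbered populations, and 1 to 36 with a population left out (36 without C4, 5 without S4, and 1 without C1, C5, S1 or S3). In the correlations of deviations, 0 of 12 populations correlated best with their own number in the other regime. These correlations cannot tell whether like-numbered populations shared handling. For diet it was 115, against 545 in DESeq2, 472 with the germline and midgut covariates, 225 with the muscle covariate, 21 with no replicate block, and 3 to 139 with a population left out (3 without S1, 4 without S5, 22 without S3 and 23 without S2; 38 to 49 without C1, C2, C3, C4, S4 or S6). Without the population block Gyg had an adjusted edgeR p of 0.0732. For the interaction it was 0, against 1 in DESeq2. Pairs of members with diet differences correlated at 0.6 or more numbered 23, against 11 in log2 TPM and 5 with the muscle score removed. The muscle covariate and score were chosen after seeing the data.

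Estimates near 0 changed sign. For regime Pgm1 was at 0.03 in limma voom, 0.04 from the deposited log2 values, 0.2 with the germline and midgut covariates and 0.01 with the replicate block, and at -0.13 to 0.08 with a population left out. Gyg was at -0.01 and 0 with the germline and muscle covariates and at -0.04 to 0.05 with a population left out, and UGP was at -0.13 to 0.08. For diet Glys was at -0.03 with the muscle covariate and at -0.01 to 0.06 with a population left out, and Tps1 at -0.01 with the muscle covariate. For the interaction UGP was at -0.03 with that covariate. Of the transcript shares only RA of Tret1-1, RE of UGP and RA of Treh for diet and RA of Tret1-1 for regime were run under alternatives, and these 4 kept their direction. The cause of these shifts was not tested.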
